A study of Mus musculus with 12 samples.

Results

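The comparison sets the 6 arrays of mice that carry a CD70 transgene against the 6 arrays of mice that do not, and asks which genes differ with the transgene whether or not the mice can make interferon-gamma. Arrays were chosen by genotype label, and all 12 of the 12 arrays of the series were used: CD70TG (3 arrays) and CD70TG*Ifng-/- (3 arrays) against WT (3 arrays) and Ifng-/- (3 arrays). The model held the Ifng genotype as an additive factor, so the transgene effect reported here, called the shared effect, is a single value per gene over both Ifng genotypes. All mice were males of the strain C57BL/6J, aged 10 to 12 weeks, and each array was labelled as a separate mouse. The CD70TG arrays were labelled as clone F13, which is 1 clone, and the labels do not name the promoter that drives the transgene. The CD70TG*Ifng-/- labels name no clone, so whether both transgenic groups carry the same one is not stated. Ifng-/- mice lack a working interferon-gamma gene, and CD70TG*Ifng-/- mice carry both alterations. Bone marrow cells bearing CD71, the transferrin receptor, were enriched with antibody-coated magnetic beads, and their total RNA was measured on 1-colour whole-transcript arrays.

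CD70 is a ligand of the tumour necrosis factor family, and its receptor CD27 sits on T cells, where binding gives a costimulatory signal. In CD70 transgenic mice T cells are driven for a long time, and interferon-gamma is a main product of such cells. CD71 is abundant on red cell precursors, which mature in the marrow on central macrophages that hold them through adhesion molecules such as Vcam1, supply and recycle iron, and engulf the expelled nuclei.

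Deposited values were log2 values relative to the median of each probe set over the 12 arrays, so a value says how an array stands within a gene and not how abundant the gene is. The rounding of the values placed 2841 of 19935 genes in a class whose original log2 level was 8 or more on each of the 12 arrays. It held 14 of 16 measured globin and haem synthesis genes, 20 of 23 red cell membrane genes and Tfrc, which encodes CD71, and also 27 of 27 mitosis and 31 of 32 DNA replication genes, against 0 of 30 B lineage, 0 of 21 T cell and 2 of 31 macrophage genes. Probes differ in brightness and no unenriched sample was used here, so these counts describe the arrays and do not measure cell content. Genes that drop below that level on some arrays are outside the class, so the counts also depend on falls between arrays. The root mean square deviation from the group mean over all genes was largest in Ifng-/- 2 (0.151), Ifng-/- 1 (0.146) and CD70TG 3 (0.125). It was 0.077 to 0.113 in the other arrays. Ifng-/- 1 thus deviated about as much as Ifng-/- 2, and more than CD70TG 3. The pair of Ifng-/- 2 and CD70TG 3 is followed below for its values in single gene lists. Ifng-/- 2 had a mean of -0.48 over the mature neutrophil list where Ifng-/- 1 and Ifng-/- 3 had 1.68 and 0.56, and CD70TG 3 had a mean of 1.11 over the primary granule list where the other CD70TG arrays had 0.23. Ifng-/- 1 stood apart in single lists too, on the high side, as in the monocyte list (0.94, against -0.06 in Ifng-/- 2 and 0.25 in Ifng-/- 3). No pair with Ifng-/- 1 was left out. Counts without the pair therefore keep this high array among those without the transgene.

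The transgene itself was checked first. Cd70 values were -0.24, -0.38 and -0.12 in WT against 0.01, 0.05 and -0.01 in CD70TG, and with Ifng deleted -0.09, -0.49 and 0.04 without the transgene against 0.05, 0.34 and 0.26 with it. In each Ifng genotype all 3 transgenic arrays lay above the 3 others. Its shared effect was 0.33 ± 0.09 (SE, 6 against 6 arrays, adjusted p = 0.0477), which is 1.26-fold. This call is weak: it was lost without 9 of the 12 arrays taken singly, with adjusted p up to 0.121. Ifng showed no shared effect beyond the spread (0.03 ± 0.07, adjusted p = 0.911), and its probe set is no check of the knockout, as the deleted part of Ifng is not named in the labels.

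In the fit over both Ifng genotypes the transgene went with lower expression of macrophage, eosinophil and B lineage genes and of some late red cell genes, and with small rises in some proteasome subunits. Each genotype tested alone gave macrophage falls in both, whereas the falls of B lineage, eosinophil and late red cell genes and the proteasome rises passed mostly with Ifng intact. Such counts of calls do not test a difference between the genotypes, for which the interaction of each gene is given. Of 19935 genes tested, 743 (3.73%) passed the threshold of 0.05 on the adjusted p in the shared effect, 208 of them higher (1.04%) and 535 lower (2.68%). The falls were much larger than the rises: of 111 genes that changed at least 2-fold, 109 were lower and 2 were higher. In 499 of the 743 genes, 94 higher and 405 lower, the 3 transgenic arrays lay on the same side of the 3 others within each Ifng genotype, and over all genes tested 674 (3.38%) did. The count of rises depended on 1 array more than the count of falls. Without Ifng-/- 2 there were 1197 higher and 859 lower genes, without CD70TG*Ifng-/- 2 there were 518 and 552, and without any other single array between 48 and 208 higher and between 362 and 552 lower. With arrays centred by level class the split was 92 higher and 580 lower. The genes of the higher level class had a median shared effect of 0.12, against 0.01 over all genes, and 0.02 with that centring.

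Both transgene effects rest on separate arrays, so they can be set side by side. With Ifng intact (CD70TG against WT) 2179 genes (10.9%) passed, 1640 higher and 539 lower, and without Ifng (CD70TG*Ifng-/- against Ifng-/-) 499 genes (2.5%) passed, 31 higher and 468 lower. The lists had 232 genes in common, which is 10.6% of the first and 46.5% of the second. Of these, 219 were lower in both, 4 were higher in both and 9 went opposite ways. The 4 genes higher in both were Ndrg2, Tank, Psmd14, a deubiquitinating subunit of the proteasome, and Dnajc10, a reductase of the endoplasmic reticulum. Both effects had a Pearson correlation of 0.354 and a Spearman correlation of -0.001 over 19935 genes, which are not independent of one another.

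**Figure D1:**
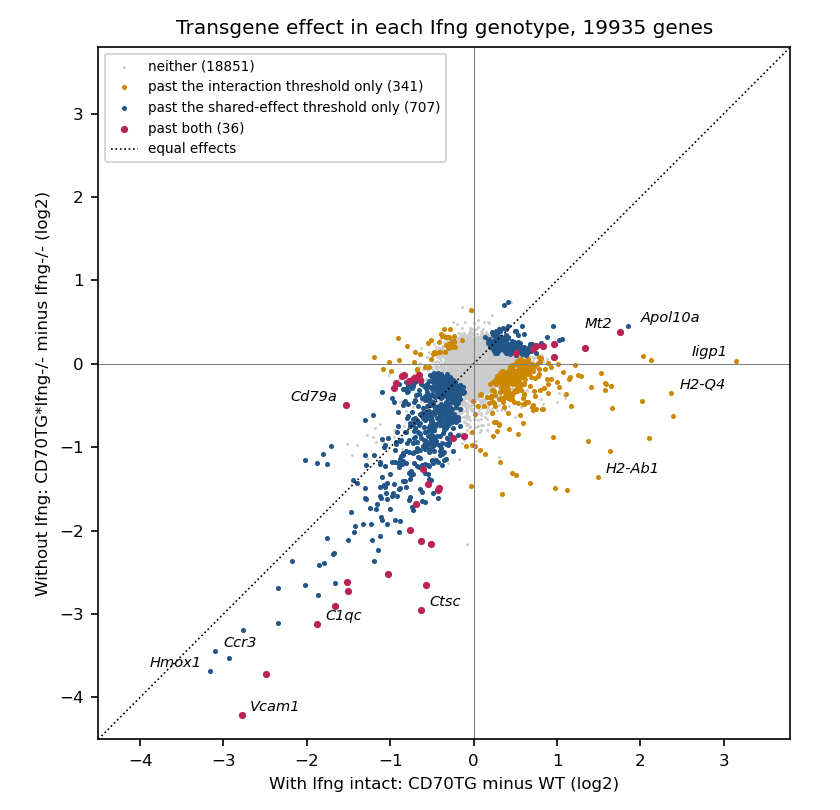
Each point is a gene, placed by its log2 transgene effect with Ifng intact (horizontal axis, CD70TG minus WT) and without Ifng (vertical axis, CD70TG*Ifng-/- minus Ifng-/-), and coloured by the threshold it passed. The 707 genes past the shared-effect threshold alone lie in the lower left and the upper right, the lower left reaching -4.21 for Vcam1 (past both thresholds), and 307 of the 377 genes past the interaction threshold have effects of opposite sign.

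The interaction, the effect with Ifng intact minus the effect without it, tests whether both effects differ. It passed in 377 genes (1.89%), of which 36 also passed in the shared effect and 341 did not. In 307 of the 377 the effects had opposite signs. The additive fit counts the interaction as error, so genes with opposite effects are kept out of the 743 by its construction, and that all 743 had the same sign in both genotypes is not a result about the genes. As the average of both effects in the model of 4 group means, which does not count it as error, 1392 genes passed (679 higher, 713 lower). For 288 of the 743 genes the 95% interval of the interaction lay within 0.5 log2 units of 0, and for 601 within 1 unit. For the rest, these arrays leave room for effects that differ by more than 2-fold.

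Among genes past the threshold with no overlap within either Ifng genotype, the 15 largest falls were, in order, in Vcam1, Hmox1, Ccr3, Mrc1, Cd5l, Cd163, Trf, Hpgd, C1qc, Axl, Cd68, C1qb, Fcna, C1qa and Marcks. Their promoters are shown because each of these genes fell in both Ifng genotypes. The RefSeq table (GRCm38.p6, 250 bases before to 50 after the start) held 10 of the 15. The letters GAGGAA or their reverse complement TTCCTC, the core of the PU-box bound by the myeloid factor PU.1, stood in 9 of these 10 and in 27% of the 19175 promoters of genes on the array. Of the 20 promoters held for 14 of the 15 genes with the largest rises, chosen in the same way, 1 held them. The GATA letters AGATAA or TTATCT stood in 1 of the 10 lower promoters and in 9.25% of all, and the AP-1 letters TGAGTCA or TGACTCA in 2 of the 10 and in 4.63%. These are counts of letters, with no test and no evidence of binding. Shown are Ccr3 (chr9:124021721-124022020, plus strand), Mrc1 (chr2:14229164-14229463, plus strand), Cd5l (chr3:87357631-87357930, plus strand) and Hpgd (chr8:56294302-56294601, plus strand), the first 4 in order of change whose promoter holds the PU-box letters, which are in capitals.
Ccr3: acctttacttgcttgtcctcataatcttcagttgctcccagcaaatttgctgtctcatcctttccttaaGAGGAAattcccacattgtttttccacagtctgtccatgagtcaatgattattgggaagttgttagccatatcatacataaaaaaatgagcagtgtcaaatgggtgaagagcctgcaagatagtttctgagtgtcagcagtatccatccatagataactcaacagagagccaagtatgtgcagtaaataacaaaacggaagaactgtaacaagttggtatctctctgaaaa
Mrc1: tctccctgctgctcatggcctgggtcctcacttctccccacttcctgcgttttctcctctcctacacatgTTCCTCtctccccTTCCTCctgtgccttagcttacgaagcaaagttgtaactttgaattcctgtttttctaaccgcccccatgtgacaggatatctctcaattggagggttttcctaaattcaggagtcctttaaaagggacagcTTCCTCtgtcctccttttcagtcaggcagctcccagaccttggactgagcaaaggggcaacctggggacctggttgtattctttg
Cd5l: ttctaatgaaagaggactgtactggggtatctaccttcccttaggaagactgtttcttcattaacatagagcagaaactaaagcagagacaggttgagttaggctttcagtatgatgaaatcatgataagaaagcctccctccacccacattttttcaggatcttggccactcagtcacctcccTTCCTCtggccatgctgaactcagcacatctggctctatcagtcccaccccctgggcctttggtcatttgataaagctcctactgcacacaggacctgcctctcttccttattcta
Hpgd: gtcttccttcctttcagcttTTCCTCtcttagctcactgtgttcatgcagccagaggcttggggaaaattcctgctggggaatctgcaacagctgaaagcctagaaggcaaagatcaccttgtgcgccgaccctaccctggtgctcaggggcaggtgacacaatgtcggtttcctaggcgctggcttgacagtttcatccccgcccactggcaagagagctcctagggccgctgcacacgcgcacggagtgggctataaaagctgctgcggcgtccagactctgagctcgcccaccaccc

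Vcam1, the adhesion molecule that anchors red cell precursors to island macrophages, had the largest fall. Its values were 1.05, 1.69 and 1.11 in WT against -1.70, -1.75 and -1.05 in CD70TG, and with Ifng deleted 1.67, 1.37 and 1.77 without the transgene against -2.68, -2.57 and -2.57 with it. Every transgenic array lay below every other array. The shared effect was -3.50 ± 0.23 (SE, adjusted p = 4.97e-07), an 11.3-fold difference, and the fall was larger without Ifng (-4.21) than with it (-2.78; interaction 1.43, 95% interval 0.87 to 1.98, adjusted p = 0.018). That interaction did not pass with quantile normalization (adjusted p = 0.745) or without 3 of the arrays taken singly.

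Hmox1, the haem oxygenase that breaks haem down and frees its iron, was the next. Its values were 1.51, 2.28 and 1.39 in WT against -1.42, -1.49 and -1.39 in CD70TG, and with Ifng deleted 2.01, 1.86 and 2.11 without the transgene against -1.83, -1.75 and -1.50 with it. The transgenic arrays were all below -1.3 and the others all above 1.3. The transgene effect was -3.42 ± 0.14 (adjusted p = 7.64e-09), 10.7-fold, and the interaction did not pass (0.52, 95% interval 0.00 to 1.05, adjusted p = 0.247). Trf, which encodes the iron carrier transferrin, fell by 2.73 ± 0.17 (adjusted p = 3.24e-07), and Cd163, the scavenger receptor for haemoglobin bound to haptoglobin, fell by 2.98 ± 0.17 (adjusted p = 1.70e-07). Cd163 values were 1.48, 2.29 and 1.03 in WT against -1.03, -1.16 and -1.30 in CD70TG, and with Ifng deleted 1.93, 1.84 and 1.94 without the transgene against -1.22, -1.57 and -1.06 with it, again with no overlap.

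Mrc1, the mannose receptor of tissue macrophages, had values of 1.33, 2.20 and 1.22 in WT against -1.28, -1.53 and -1.22 in CD70TG, and with Ifng deleted 1.92, 1.82 and 2.04 without the transgene against -1.54, -1.68 and -1.58 with it. Its shared effect was -3.23 ± 0.15 (adjusted p = 1.93e-08), with all 6 transgenic arrays below the 6 others. Cd5l, a protein secreted by macrophages, fell by 3.10 ± 0.21 (adjusted p = 5.87e-07), Hpgd, which inactivates prostaglandins, fell by 2.52 ± 0.17 (adjusted p = 5.10e-07), and Axl, a receptor for dying cells, fell by 2.34 ± 0.15 (adjusted p = 4.27e-07). Fcna, a ficolin of macrophages, fell by 2.27 ± 0.14 and the lysosomal glycoprotein gene Cd68 by 2.32 ± 0.17. In each of the 15 genes the 6 transgenic arrays lay below the 6 others. As the 15 were chosen among genes with no overlap within either Ifng genotype, this separation largely follows from the choice.

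**Figure D2:**
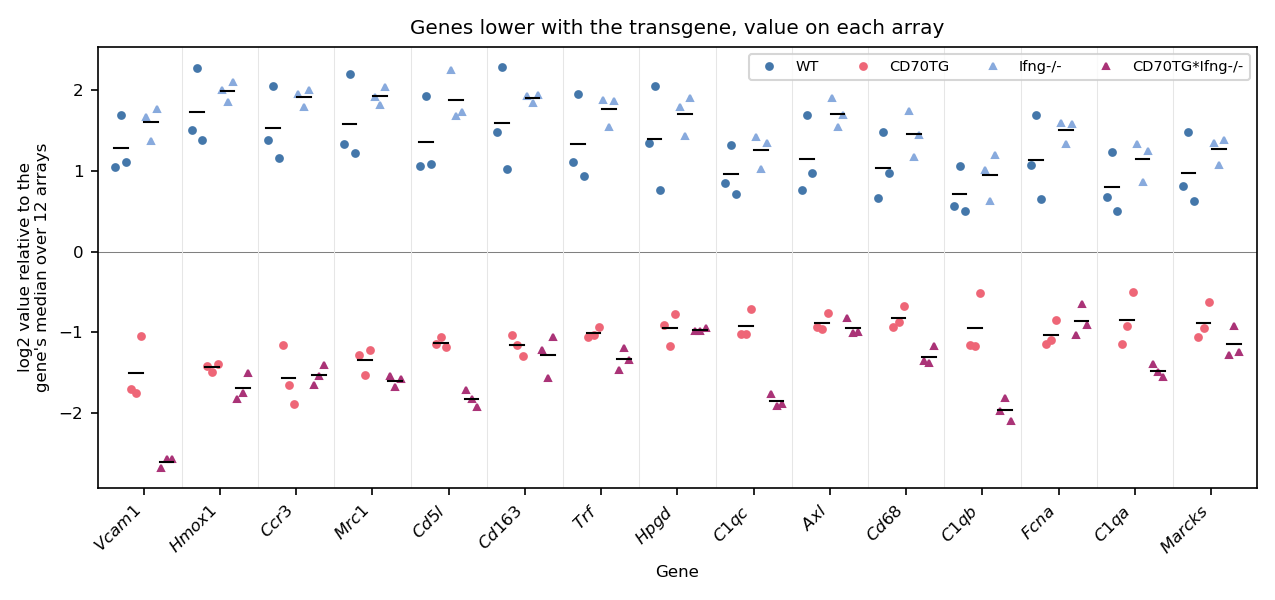
Log2 values on each array, relative to the gene's median over the 12 arrays, of the 15 genes with the largest falls in the shared effect and no overlap within either Ifng genotype, with circles for mice with Ifng, triangles for mice without it, and black bars for group means (3 arrays each). In every gene the red and purple points of the transgenic arrays lie below 0 and the blue points of the other arrays above 0.

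Most of the resident and island macrophage markers fell. Of 31 measured members 24 fell, 0 rose and 7 did not pass, with a median shared effect of -1.16 against 0.01 over all genes (2.68% of all genes fell). With Ifng intact 21 passed as lower, and without Ifng 23. Between 22 and 25 members fell without any 1 array, and 24 with each of the 3 other scalings. The mean over the list lay between 0.50 and 0.99 in WT and between 0.78 and 1.06 in Ifng-/-, against -0.62 to -0.49 in CD70TG and -0.72 to -0.69 in CD70TG*Ifng-/-. Adgre1, the adhesion receptor gene most used to mark mouse macrophages, fell by 2.11, Mertk, an uptake receptor for dying cells, by 1.73 and Csf1r, the growth factor receptor of macrophages, by 1.19. Siglec1, the sialic acid-binding lectin used to mark marrow macrophages, fell by 1.16. Among the 7 that did not pass were Itgam (-0.91 ± 0.28, adjusted p = 0.0859), Cx3cr1 (-0.10) and Lyve1 (-0.01). In bulk RNA, fewer macrophages in the enriched fraction and less of these RNAs per macrophage cannot be told apart.

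The lists around this one moved the same way, and partly share members with it (2.68% of all genes fell). Of 19 macrophage iron and haem recycling genes 9 fell and 0 rose, 5 of the 19 being in the macrophage list too. They included Spic, the transcription factor of haem-recycling macrophages (-1.97 ± 0.12, adjusted p = 3.24e-07), the iron exporter gene Slc40a1 (-1.14) and Slc48a1, a haem transporter (-0.48). Of 16 complement and Fc receptor genes 8 fell, and 12 without Ifng-/- 2 and CD70TG 3. C1qc fell by 2.50, C1qb by 2.28, Fcer1g, the shared signalling chain of Fc receptors, by 1.78 and the properdin gene Cfp by 2.09. Of 24 lysosomal genes 16 fell, among them Lipa, the acid lipase (-1.66), Lgmn, an asparagine-specific protease (-1.42), and Laptm5 (-1.59). Of 15 genes of LXR signalling and cholesterol efflux 7 fell, with Lpl, the lipoprotein lipase, at -1.92 ± 0.13 (adjusted p = 4.97e-07), Apoe at -2.07 and the cholesterol exporter Abca1 at -0.96. Of 20 genes for the uptake of apoptotic cells 6 fell, among them Itgb5 (-1.06) and Timd4 (-0.61), and without Ifng-/- 2 the count was 11. With Ifng intact and without Ifng, the recycling list had 9 and 10 lower genes, the complement list 6 and 10, the lysosomal list 9 and 19, the LXR list 4 and 9 and the uptake list 7 and 5. Of 22 myeloid transcription factors Spic, Id2 (-1.47) and Maf (-0.36) fell, and the count was 8 without Ifng-/- 2, 6 without CD70TG 3 and 5 with quantile normalization. No member of these lists rose in the shared effect with all 12 arrays. Without Ifng-/- 2 and CD70TG 3, 12 uptake genes and 11 myeloid transcription factors fell.

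Within the falls, the larger estimate leaned to different sides in different gene groups. Of all 535 genes that fell, 366 fell further without Ifng and 169 further with it. Among the called macrophage genes 23 of 24 fell further without Ifng, and among the called lysosomal genes 16 of 16. Among the called B lineage genes 12 of 13 fell further with Ifng intact, and among the late maturation genes 8 of 8. In most single genes this difference did not pass: the interaction passed in 4 of these 24 macrophage, 3 of the 16 lysosomal, 2 of the 13 B lineage and 1 of the 8 late maturation genes, against 1.89% of all genes. Members of a list were measured on the same arrays, so such counts are not independent observations, and they were not taken with other scalings. The macrophage interactions of Vcam1, Cd5l and Csf1r did not pass with quantile normalization. Over all 31 macrophage members the median effects were -1.12 with Ifng and -1.23 without it. Ctsc, the lysosomal protease that activates granule enzymes, had the largest interaction among genes past both thresholds. Its values were -0.17, 0.64 and 0.17 in WT against -1.07, -0.44 and 0.27 in CD70TG, and with Ifng deleted 0.84, 0.27 and 0.55 without the transgene against -2.45, -2.41 and -2.32 with it. CD70TG and WT overlapped, whereas without Ifng the groups were far apart. The effect was -0.63 with Ifng and -2.95 without it (interaction 2.32, 95% interval 1.53 to 3.12, adjusted p = 0.00935), and with quantile normalization the interaction did not pass (adjusted p = 0.0506). Ctss, the protease that trims the class II invariant chain, had -0.57 and -2.65 (interaction adjusted p = 0.00536), Ly86 -0.51 and -2.16, Asah1, the acid ceramidase, -0.63 and -2.13, and Mpeg1, a pore-forming protein of macrophages, -1.03 and -2.51. The interaction calls of Ly86 and Mpeg1 were lost without 2 and 9 of the arrays taken singly, and both with quantile normalization.

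C1qc, a chain of the first complement component, shows a fall in both genotypes with a difference in size. Its values were 0.85, 1.32 and 0.71 in WT against -1.02, -1.02 and -0.71 in CD70TG, and with Ifng deleted 1.42, 1.03 and 1.35 without the transgene against -1.76, -1.92 and -1.89 with it. All 6 transgenic arrays lay below the others, and the 3 without Ifng lay below the 3 with it. The interaction was 1.25 (95% interval 0.81 to 1.68, adjusted p = 0.00955), and it did not pass with quantile normalization (adjusted p = 0.250).

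Of 19 monocyte genes 6 fell and 0 rose, with a median of -0.40 (2.68% of all genes fell). Sirpa, an inhibitory receptor of phagocytes, fell by 1.69, the lysozyme gene Lyz2 by 1.49, Treml4 by 1.36, Ly86 by 1.33, Clec4a3 by 1.20 and Csf1r, which the macrophage list holds too, by 1.19. Without Ifng-/- 2 the count was 10. With Ifng intact 5 passed as lower, and without Ifng 7.

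Of 10 eosinophil genes 7 fell and 0 rose (median -0.98), where 2.68% of all genes fell. With Ifng intact 6 passed as lower, and without Ifng 2. Ccr3, the eotaxin receptor that guides eosinophils, had values of 1.38, 2.06 and 1.16 in WT against -1.16, -1.65 and -1.89 in CD70TG, and with Ifng deleted 1.96, 1.79 and 2.00 without the transgene against -1.65, -1.54 and -1.41 with it. The transgenic arrays did not overlap with the others, and the shared effect was -3.27 ± 0.15 (adjusted p = 1.49e-08), with 0.35 for the interaction (95% interval -0.25 to 0.95). Adgre4 fell by 1.98, the major basic protein gene Prg2 by 1.58, Ear6, an eosinophil ribonuclease, by 1.45, Alox15 by 1.00 and the eosinophil peroxidase gene Epx by 0.96. In Ear6 and Alox15 the array Ifng-/- 2 (-0.17 and -0.02) lay among those of CD70TG*Ifng-/-. Siglecf (0.02) and Il5ra (-0.07) did not pass. The 15 basophil and mast cell genes had a median of -0.01, with 0 calls by limma (2 lower at an unadjusted p under 0.05, 1 in the model of 4 group means), 2 without Ifng-/- 2, and 3 without Ifng-/- 2 and CD70TG 3.

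Of 18 mature neutrophil genes 7 fell and 0 rose (2.68% of all genes fell), with a median of -1.03, and here the array Ifng-/- 2 decided the count. Without it 18 of 18 fell, without CD70TG*Ifng-/- 2 there were 10, between 3 and 6 without any other single array, and 11 with quantile normalization. With Ifng intact 5 passed as lower, and without Ifng 2. Cxcr2, the chemokine receptor of mature neutrophils, had values of 0.91, 1.32 and 1.03 in WT against -0.45, -0.01 and -0.62 in CD70TG, and with Ifng deleted 2.11, 0.01 and 1.02 without the transgene against -0.51, -0.11 and -0.43 with it. Its groups did not overlap, but Ifng-/- 2 lay close to the transgenic arrays. Its shared effect was -1.42 ± 0.25 (adjusted p = 0.00380). Ccl6, a chemokine of myeloid cells, fell by 1.41 ± 0.17 (adjusted p = 0.000166) and Il1b by 0.68. The 12 primary granule genes, which mark earlier granulocytes, had 0 calls by limma (0 at an unadjusted p under 0.05, 0 in the model of 4 group means) and medians of 0.40 with Ifng and -0.37 without it. Without Ifng-/- 2 and CD70TG 3, 4 passed as lower.

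Of 30 B lineage genes 13 fell and 0 rose, with a median of -0.31 (2.68% of all genes fell). With Ifng intact 20 passed as lower, and without Ifng 2. Bank1, a B cell scaffold protein, had values of 0.14, 0.54 and 0.25 in WT against -0.67, -0.50 and -0.57 in CD70TG, and with Ifng deleted 0.55, 0.50 and 0.66 without the transgene against -0.41, -0.52 and -0.14 with it. The groups did not overlap, and both effects were nearly the same (-0.89 and -0.93; interaction 0.04, 95% interval -0.30 to 0.37). Cd79a had effects of -1.53 with Ifng and -0.49 without it (interaction -1.04, 95% interval -1.51 to -0.58, adjusted p = 0.0299, a call lost without 6 of the arrays taken singly), and Cd79b of -1.31 and -0.68, where the interaction did not pass (adjusted p = 0.160). The recombinase gene Rag1 (-0.69), the surface gene Ms4a1 (-0.72) and the transcription factor genes Ebf1 (-0.65) and Pax5 (-0.33) fell too. The count was 19 without Ifng-/- 2, and 8 without CD70TG 1 or CD70TG 2. The CD70 transgenic mouse in common use expresses CD70 in B cells, which the labels do not state for these mice.

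Markers of the remaining cell types showed few calls, where 2.68% of all genes fell and 1.04% rose. Counts of 1 call in a list are near that share and are no result about a cell type. Of 21 T cell genes only Cd4 passed (-0.77 ± 0.09, adjusted p = 0.000167), and the median was -0.01. Of 20 cytotoxic and NK genes Klrc1 fell (-0.39), of 15 dendritic cell genes Ly6d (-0.91) and Cd209a (-0.34), the count being 4 without Ifng-/- 2 or CD70TG 3 and 5 without both, and of 14 megakaryocyte genes Plek (-1.12), which leukocytes also express. Of 18 stroma and endothelium genes Lpl, counted above, and Kitl, the stem cell factor gene (-0.49 ± 0.06, adjusted p = 0.000349), fell, and of 20 stem and progenitor genes Cd48 (-0.83), the count being 3 without Ifng-/- 2, 2 without CD70TG 3 or WT 1, 0 without CD70TG*Ifng-/- 1, and 5 without Ifng-/- 2 and CD70TG 3. Of 14 plasma cell genes 0 passed by limma (1 higher and 3 lower at an unadjusted p under 0.05, 2 lower in the model of 4 group means), with 1 higher and 2 lower without Ifng-/- 2.

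**Figure D3:**
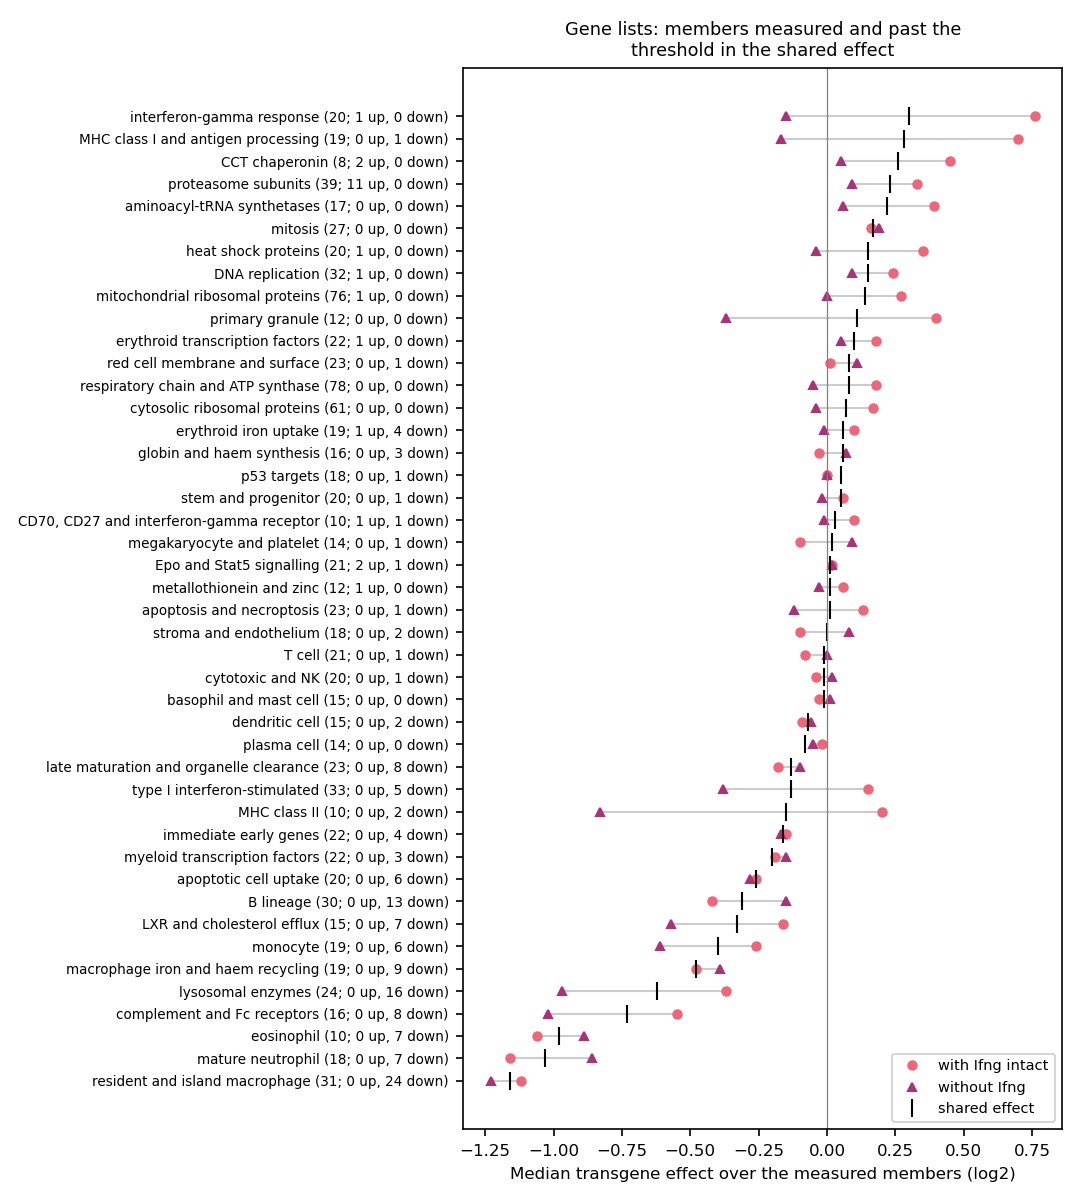
For each of the 44 gene lists, the median log2 transgene effect over its measured members with Ifng intact (circles), without Ifng (triangles) and shared (black ticks), with the number measured and the numbers past the threshold in the shared effect beside the name. The macrophage list has the lowest shared median (-1.16, with -1.12 with Ifng and -1.23 without it), and the interferon-gamma response list has its medians on opposite sides of 0 (0.76 and -0.15).

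Most red cell genes did not pass in the shared effect, while some genes of late maturation and iron handling fell (2.68% of all genes did). Of 23 late maturation and organelle clearance genes 8 fell and 0 rose, and 8 or 9 fell without any 1 array. Tested in each genotype, 10 passed as lower with Ifng intact and 0 without Ifng. Bnip3l, the receptor that directs mitochondria to autophagy in reticulocytes, had values of 0.12, 0.20 and 0.04 in WT against -0.50, -0.37 and -0.55 in CD70TG, and with Ifng deleted 0.21, 0.08 and 0.03 without the transgene against -0.32, -0.14 and -0.03 with it. The 6 transgenic arrays lay below the 6 others, and the shared effect was -0.43 ± 0.07 (adjusted p = 0.00377). The ubiquitin enzymes Ube2l6 (-0.43) and Ube2o (-0.50) fell, as did the autophagy genes Gabarapl2 (-0.43) and Map1lc3b (-0.32), the ubiquitin ligase gene Rnf10 (-0.42) and Alox15, which the eosinophil list holds too. Fbxo7 (0.05), Trim58 (-0.03) and Xpo7 (0.00) did not pass.

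Of 16 globin and haem synthesis genes 3 fell and 0 rose, also without any 1 array, save that 3 rose without CD70TG 3 or without Ifng-/- 2, and 6 without both. With Ifng intact 4 passed as lower, and without Ifng 1. Slc25a39, a mitochondrial carrier needed for haem synthesis, had values of 0.25, 0.33 and 0.22 in WT against -0.42, -0.39 and -0.49 in CD70TG, and with Ifng deleted 0.35, 0.26 and 0.13 without the transgene against -0.23, -0.20 and -0.13 with it. It had no overlap and fell by 0.57 ± 0.06 (adjusted p = 7.63e-05). Alas2, the first enzyme of haem synthesis in red cells, fell by 0.32 ± 0.06 (adjusted p = 0.00875) and Fech, the last, by 0.36 ± 0.07 (adjusted p = 0.00963). The list's median was 0.06, and -0.04 with arrays centred by level class. Bpgm, which makes the haemoglobin ligand bisphosphoglycerate, was the 1 gene of 23 membrane and surface genes to fall (-0.42 ± 0.08, adjusted p = 0.00723), and without Ifng-/- 2 and CD70TG 3, 6 rose and 2 fell. Of 19 iron uptake genes Ftl1, a ferritin chain (-0.46), Iscu, a scaffold of iron-sulphur clusters (-0.56), Ncoa4, the receptor for ferritin breakdown (-0.49), and Hfe (-0.63) fell, and Hspa9 (0.52) rose. With Ifng intact 4 of the 19 passed as lower and 4 as higher, and without Ifng 2 passed as lower and 0 as higher. Tfrc showed no shared effect beyond the spread (0.04, adjusted p = 0.803). The macrophage list moved with these genes over the same arrays, and its part in the falls of genes that macrophages also express, such as Ftl1, was not tested.

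Of 22 erythroid transcription factors 1 rose, Nfia (0.31 ± 0.07, adjusted p = 0.0162), a call lost without CD70TG*Ifng-/- 1, and 4 rose without Ifng-/- 2 and CD70TG 3. Gata1 (0.13, adjusted p = 0.378) and Klf1 (0.11, adjusted p = 0.458) did not pass. The share that rose was 1.04% over all genes, and 2.68% fell. Of 21 genes of Epo and Stat5 signalling Cish, a feedback inhibitor of Stat5 (0.30), and Stat5a (0.21) rose and Bcl2l1, the survival gene of late red cell precursors (-0.32), fell. The call of Stat5a was lost without 9 of the 12 arrays taken singly, that of Cish without 8 and that of Bcl2l1 without 6. Of 32 DNA replication genes Gins2 rose (0.25), a call lost without 8 of the arrays taken singly, and of 27 mitosis genes 0 passed by limma (20 higher at an unadjusted p under 0.05, 1 in the model of 4 group means), with medians of 0.15 and 0.17, and 0.05 and 0.07 with arrays centred by level class. Without Ifng-/- 2 the counts of rises were 8 and 14, and without both Ifng-/- 2 and CD70TG 3 they were 19 and 21.

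**Figure D4:**
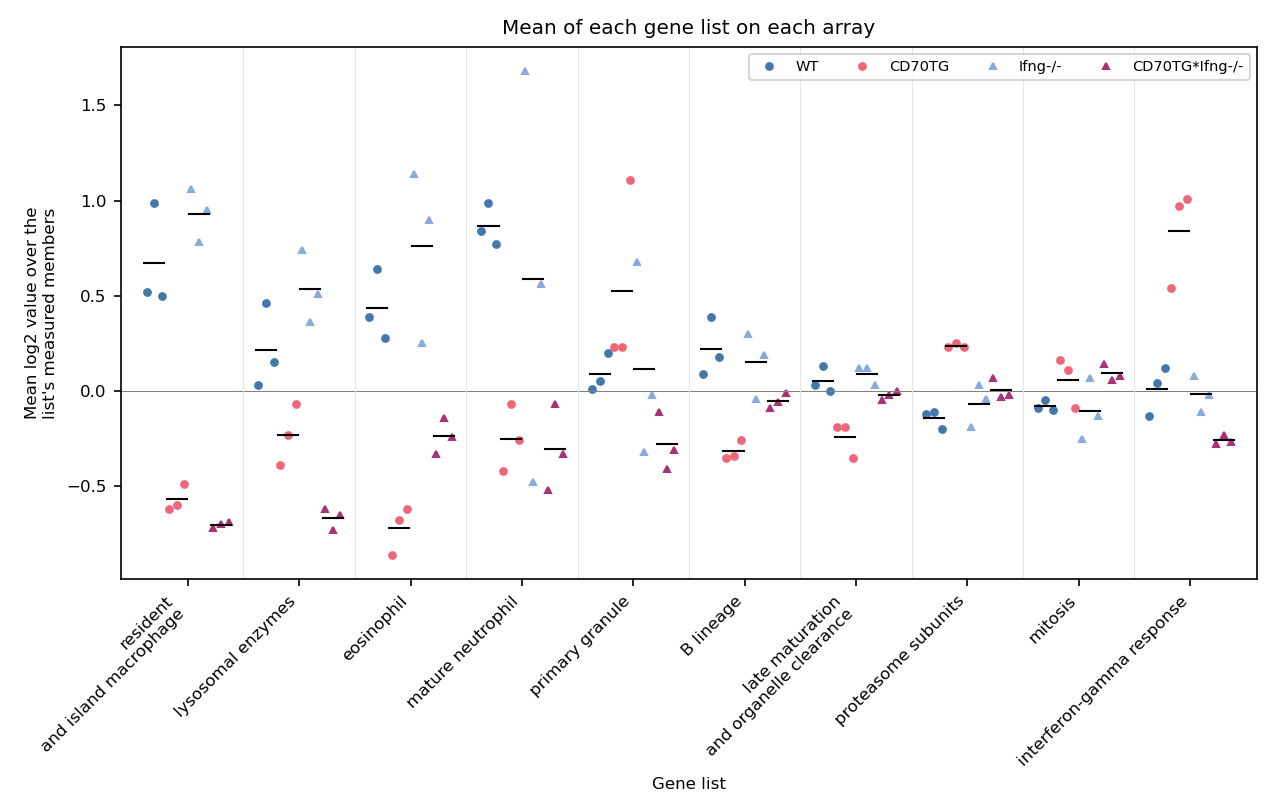
Mean log2 value over the measured members of 10 gene lists on each of the 12 arrays, with circles for mice with Ifng, triangles for mice without it, and black bars for group means. The macrophage list separates the transgenic arrays (-0.72 to -0.49) from the others (0.50 to 1.06), whereas in the mature neutrophil list the array Ifng-/- 2 (-0.48) lies among the transgenic ones.

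Rises were small. Only Apol10a, an apolipoprotein L gene, and the metallothionein Mt2, which binds zinc and other metals, rose at least 2-fold. Apol10a values were -0.20, -0.24 and 1.12 in WT against 2.04, 2.31 and 1.90 in CD70TG, and with Ifng deleted -0.20, -0.42 and -0.38 without the transgene against 0.10, -0.10 and 0.34 with it. WT 3 lay far above the other WT arrays, and the groups did not overlap within either Ifng genotype. The shared effect was 1.15 ± 0.26 (adjusted p = 0.0246), made of 1.85 with Ifng and 0.45 without it, and the call was lost without 4 of the arrays taken singly. Mt2 values were -0.16, -0.16 and -0.43 in WT against 1.24, 1.50 and 1.78 in CD70TG, and with Ifng deleted -0.41, -0.03 and -0.19 without the transgene against 0.42, 0.04 and 0.03 with it. The transgene effect was 1.07 ± 0.21 (adjusted p = 0.00869), and the rise was larger with Ifng (1.76 against 0.38; interaction 1.39, 95% interval 0.95 to 1.82, adjusted p = 0.0052). That interaction did not pass with quantile normalization (adjusted p = 0.130).

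Of the 208 genes that rose, 176 rose further with Ifng intact and 32 further without it. Cxcl9, a chemokine induced by interferon-gamma, is of the first kind: its effect was 1.33 with Ifng and 0.19 without it (interaction adjusted p = 0.0326, lost without 6 of the arrays taken singly), and its shared call (0.76, adjusted p = 0.0407) was lost without 8 of the arrays taken singly. Ptger3, a receptor of prostaglandin E2, had effects of 0.96 and 0.24 (interaction adjusted p = 0.0127, and 0.0703 with quantile normalization). The interaction also passed in Fam221a, Rexo2, a nuclease of mitochondria, and Apol10b, with effects of 0.84 and 0.21, 0.74 and 0.22, and 0.71 and 0.18. These calls were lost without 8, 9 and 10 of the 12 arrays taken singly, those of Rexo2 and Apol10b with quantile normalization, and that of Rexo2 also with arrays centred by level class. The interaction did not pass in Tjp1, a tight junction scaffold (0.95 and 0.46), in Khnyn (1.02 and 0.28), in Rcn1, a calcium-binding protein of the endoplasmic reticulum (0.70 and 0.23), or in the mitochondrial chaperone gene Hspd1 (0.80 and 0.25).

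In Ndrg2 and Tank both genotypes passed alone and the effects were near each other. Ndrg2 had values of -0.31, -0.35 and -0.21 in WT against 0.01, 0.19 and 0.18 in CD70TG, and with Ifng deleted -0.16, -0.01 and -0.06 without the transgene against 0.32, 0.34 and 0.45 with it. Its lowest transgenic array (0.01) lay just above its highest other array (-0.01), and the effects were 0.42 and 0.45 (shared 0.43 ± 0.05, adjusted p = 0.000239; interaction -0.03, 95% interval -0.27 to 0.20). Tank, an adaptor of TRAF signalling, had 0.58 and 0.45 (shared 0.52 ± 0.08, adjusted p = 0.000867; interaction interval -0.19 to 0.44). Pawr, a pro-apoptotic regulator, rose by 0.53 ± 0.09 (adjusted p = 0.00334), with effects of 0.36 with Ifng (adjusted p = 0.0551) and 0.71 without it (interaction -0.35, 95% interval -0.69 to -0.00, adjusted p = 0.243). Its values were -0.65, -0.88 and -0.84 in WT against -0.54, -0.37 and -0.36 in CD70TG, and with Ifng deleted 0.48, 0.77 and 0.36 without the transgene against 1.09, 1.21 and 1.43 with it, so that the difference between Ifng genotypes exceeded that with the transgene.

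**Figure D5:**
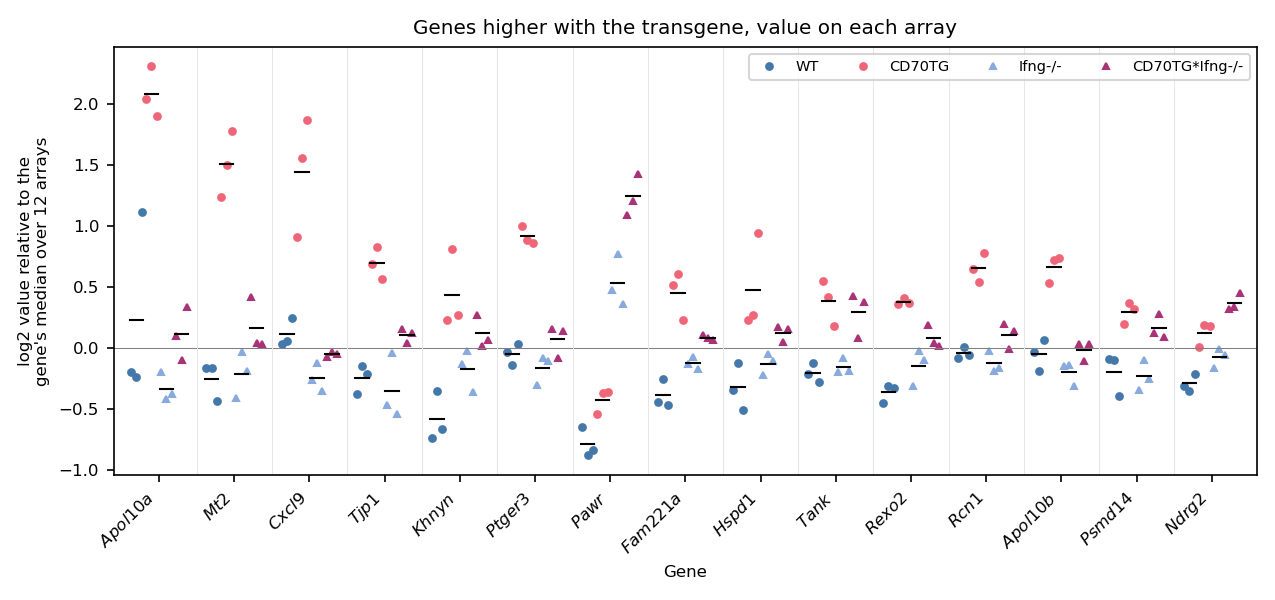
Log2 values on each array, relative to the gene's median over the 12 arrays, of the 15 genes with the largest rises in the shared effect and no overlap within either Ifng genotype, with circles for mice with Ifng, triangles for mice without it, and black bars for group means. In Apol10a, Mt2 and Cxcl9 the CD70TG arrays stand above all others. In Ndrg2, Tank and Mt2, among other genes, the arrays of both transgenic groups stand above those of both others.

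The proteasome, the complex that breaks down ubiquitin-tagged proteins, had rises in part of its subunits. Of its 39 subunit genes 11 rose in the shared effect (1.04% of all genes did) and 0 fell, with a median of 0.23. With Ifng intact 25 passed as higher (median 0.33) and without Ifng 1 did (median 0.09), and in all 11 the estimate was larger with Ifng. Without Ifng the list means overlapped, at -0.19, 0.03 and -0.04 without the transgene and 0.07, -0.03 and -0.02 with it. Psmd14 values were -0.09, -0.10 and -0.39 in WT against 0.20, 0.37 and 0.32 in CD70TG, and with Ifng deleted -0.34, -0.10 and -0.25 without the transgene against 0.12, 0.28 and 0.09 with it. The groups did not overlap, and the shared effect was 0.44 ± 0.07 (adjusted p = 0.00154). The others were the regulatory subunits Psmd1 (0.34), Psmd12 (0.32), Psmd2 (0.27), Psmd7 (0.30), Psmc3 (0.23) and Psmc5 (0.28) and the core subunits Psma1 (0.27), Psma4 (0.34), Psma5 (0.39) and Psmb7 (0.30). The immunoproteasome subunits Psmb8, Psmb9 and Psmb10 were not among them, and their effects were 0.63, 1.59 and 1.07 with Ifng and -0.46, -0.24 and -0.10 without it. The count rests on the arrays and the scaling: it was 21 without Ifng-/- 2, 13 without CD70TG*Ifng-/- 2, 10 without CD70TG*Ifng-/- 3 and 8 without Ifng-/- 3. It was 2 without each of CD70TG 1, CD70TG 2, CD70TG*Ifng-/- 1, Ifng-/- 1 and WT 3, 3 without WT 1, 4 without WT 2 and 6 without CD70TG 3. With arrays centred by level class it was 4, where 32 of the 39 genes lie in the higher class. Quantile normalization gave 11, arrays centred on their median 9, and the model of 4 group means 20.

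Other growth and protein quality genes gave few shared calls, where 1.04% of all genes rose and 2.68% fell. Of 8 CCT chaperonin genes Cct6a (0.42) and Cct8 (0.24) rose, 0 with centring within the level classes, 0 without 9 of the arrays taken singly, and 5 without Ifng-/- 2 or CD70TG*Ifng-/- 2. Hspd1 rose among 20 heat shock genes and Mrps22 (0.28) among 76 mitochondrial ribosomal genes, calls lost without 9 and 10 of the arrays taken singly and with centring by level class. By limma 0 of 17 aminoacyl-tRNA synthetases, 0 of 61 cytosolic ribosomal proteins and 0 of 78 respiratory chain genes passed. At an unadjusted p under 0.05 there were 13, 8 and 12 higher and 0, 0 and 3 lower, and in the model of 4 group means 6, 2 and 1 higher. Without Ifng-/- 2 the counts of rises were 11, 2 and 6, and 10 for the mitochondrial ribosomal genes. Without CD70TG*Ifng-/- 2, 6 synthetase and 7 mitochondrial ribosomal genes rose. Of 22 immediate early genes Zfp36, which destabilises messenger RNAs (-1.01), Fos (-0.74), Fosb (-0.56) and Jund (-0.25) fell, the call of Fosb being lost without 4 of the arrays taken singly. Of 18 p53 targets Plk2 fell (-0.29), a call lost without 10, and Bcl2l1 was the 1 call among 23 apoptosis and necroptosis genes. Ifngr2, a chain of the interferon-gamma receptor, fell by 0.57 ± 0.14 (adjusted p = 0.0386), a call lost without 7 of the arrays taken singly.

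Few interferon-inducible genes passed in the shared effect, whose fit counts the interaction as error and in which 3.73% of all genes passed. Of 20 interferon-gamma response genes Cxcl9 alone rose, while the interaction passed in 13. Of 19 MHC class I genes H2-T24 fell (-0.30) and 0 rose, with 13 interactions, and of 10 MHC class II genes Ctss and H2-Ob (-0.29) fell, with 6. The calls of H2-T24 and H2-Ob were lost without 5 and 4 of the arrays taken singly. In the model with 4 group means 9 interferon-gamma response and 10 class I genes passed as higher in the average of both effects. Oasl2, an interferon-induced gene, had the largest interaction among the named genes with effects of opposite sign (2.10 with Ifng and -0.89 without it), and its shared effect was 0.60 ± 0.42 (adjusted p = 0.529). H2-Ab1, a class II chain, had 1.49 and -1.36, with a shared effect of 0.06, and H2-Aa 1.12 and -1.51. The class I gene H2-Q4 had 2.37 and -0.35, and the guanylate-binding protein gene Gbp8 1.64 and -1.04.

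Of 33 type I interferon-stimulated genes 5 fell in the shared effect and 0 rose (2.68% of all genes fell), with 14 interactions. With Ifng intact 6 passed as higher and 3 as lower (median 0.15), and without Ifng 0 as higher and 14 as lower (median -0.38). As the average of both effects in the model of 4 group means, 2 passed as higher and 8 as lower. Rsad2, the antiviral gene that encodes viperin, had values of 0.09, 0.31 and 0.21 in WT against -0.34, -0.49 and -0.71 in CD70TG, and with Ifng deleted 0.46, 0.20 and 0.19 without the transgene against -0.25, -0.17 and -0.09 with it. Its groups did not overlap, and it fell by 0.59 ± 0.08 (adjusted p = 0.000544). Ifi27 (-0.46), Oas3 (-0.44), Isg20 (-0.36) and Ifit3 (-0.28) fell too. With arrays centred by level class 8 fell.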

How the data were processed

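Gene expression was measured on 12 arrays, 3 mice in each of 4 groups. The authors deposited log2 values that were background-corrected and summarised by RMA (per the submitters' processing notes, with the version not given in the sources used here), and each probe set had been centred on its own median over the 12 arrays (tested on the values, to within 0.000001). Log base and direction were taken from RMA's usual output, and absolute levels, detection and a filter on dim probes could therefore not be had. The step between rounded values gave the original level class (log2 of at least 8 or lower, tolerance 0.05). A probe set was placed in the higher class only if the step fitted on all 12 arrays. Of 28815 probe sets, 21780 had exactly 1 gene symbol, 1605 had several and 5430 had none, and the first were averaged to 19935 genes, 998 of them over several probe sets.

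The shared effect was fitted with limma 3.58.1 (R 4.3.3) in an additive model of transgene and Ifng genotype, and the single effects and the interaction in a model of 4 group means, each two-sided with Benjamini-Hochberg adjustment over all 19935 genes and a threshold of 0.05. Errors are standard errors of the fit. The small number of arrays limits the precision. Named genes were Cd70, Ifng, the 15 largest rises and falls that passed with no overlap in either Ifng genotype, the 5 largest interactions with opposite effects and the 5 largest past both thresholds, and up to 4 members of each list by smallest p, leaving out genes with clone names. Further list members are named as part of a count, after their values were seen. The comparison, the 44 gene lists and the rules were chosen with earlier results of these data known. Alternatives covered the model, array scaling, probe sets, level class, replicate block, array weights, variance prior, threshold and left-out arrays.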

Additional observations from a re-analysis of the deposited data

Results flagged for a closer look

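In 32 of the named genes the transgene effect differed between the Ifng genotypes by the interaction test (limma, adjusted p under 0.05), given here as the log2 effect with Ifng intact minus the effect without it. Among rises, the interaction was 1.39 in Mt2, 1.14 in Cxcl9, 0.73 in Ptger3, 0.62 in Fam221a, 0.53 in Rexo2 and 0.53 in Apol10b. Among macrophage and lysosomal falls, it was 1.43 in Vcam1, 1.23 in Cd5l, 1.25 in C1qc, 1.25 in C1qb, 1.09 in Apoe and 0.98 in Csf1r, and 2.32 in Ctsc, 2.08 in Ctss, 1.64 in Ly86, 1.50 in Asah1 and 1.49 in Mpeg1. Of these macrophage and lysosomal interactions, only those of Ctss and Asah1 passed with quantile normalization. A negative value means a larger fall with Ifng intact, and it was -1.04 in Cd79a, -0.46 in Bpgm and -0.56 in Ncoa4.

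Among genes that did not pass in the shared effect, the interaction was 2.99 in Oasl2, 2.85 in H2-Ab1, 2.72 in H2-Q4, 2.68 in Gbp8 and 2.63 in H2-Aa, all with effects of opposite sign. It was 3.11 in Iigp1, whose effects were 3.15 and 0.04, 1.94 in H2-T10, 2.08 in H2-Q5, 0.70 in Nlrc5, 1.03 in H2-DMa, 0.77 in the chaperonin gene Hspe1 and 0.50 in Farsa, a phenylalanyl-tRNA synthetase subunit. Class I genes are near-identical in sequence, and probe sharing between them was not tested. Of the 32 interactions, 14 kept the call without each single array in turn. Under both quantile normalization and centring by level class 14 kept it, and centring on the array median was not run for the interaction. Those of Mt2, Ptger3, C1qc and Ctsc were lost with quantile normalization alone, and those of Bpgm, Apol10b, Farsa, Cd5l, Mpeg1 and Rexo2 without 9 to 11 of the arrays taken singly. Quantile normalization also lost those of H2-Aa, Hspe1, Farsa, Bpgm and Ncoa4.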

How the results depend on the processing

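The 743 genes of the shared effect (208 higher, 535 lower) became 1392 as the average effect in a model of 4 group means (679 higher), 2594 with array weights (1577 higher, 1017 lower), 2633 without CD70TG 3 and Ifng-/- 2 (1608 higher, 1025 lower), 325 in the higher level class alone (111 lower) and 336 at a threshold of 0.01 (19 higher, 317 lower). Higher genes numbered 131 with arrays centred on their median and 92 with centring within the level classes. Leaving out 1 array gave 420 to 2056 genes, 48 to 1197 of them higher and 362 to 859 lower, and 853 to 2721 genes with Ifng intact, 297 to 868 without Ifng and 82 to 711 for the interaction. The interaction had 82 calls without WT 1, 711 without CD70TG*Ifng-/- 1, 85 without CD70TG*Ifng-/- 2, 94 without CD70TG*Ifng-/- 3 and 88 without CD70TG 2. The causes were not tested. No reversal of direction was seen among the 106 named genes called in the shared effect or the 32 called in the interaction. Named genes that did not pass were not checked for it. The balance of the shared effect did turn, from more lower to more higher genes, without Ifng-/- 2, without CD70TG 3 and Ifng-/- 2, with array weights and in the higher level class alone (214 higher). That class leaves out genes that drop below its level on some arrays, and 453 of the 535 lower genes were in the other class. Its balance is thus shaped by how the class was made and is no check of the balance over all genes. List medians changed sign from 0.11 to -0.09 for primary granule genes without CD70TG 3 and Ifng-/- 2 (-0.05 without CD70TG 3 alone), and, with centring by level class, from 0.06 to -0.04 for globin and for iron uptake genes, from 0.08 to -0.02 for red cell membrane genes and from 0.07 to -0.02 for cytosolic ribosomal genes, and some medians within 0.05 of 0 changed sign too. Of 106 named genes called in the shared effect, 82 kept the call without each single array and under the 3 other scalings.

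Replicate numbers gave no evidence of pairing: same-numbered arrays had correlations of deviations from -0.4 to 0.31, over 0.1 in 4 of 18 pairs. With the replicate block 529 genes passed (103 higher, 426 lower) in the shared effect and 128 in the interaction. Values relative to each gene's median show no signal over background, so genes near the detection limit could not be set apart.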

Other observations

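Of the 743 genes of the shared effect, 597 were in none of the gene lists. The genes below were chosen from them after their values were seen. Of 10 measured Toll-like receptor genes 5 fell and 0 rose (2.68% of all genes fell): Tlr7 (-1.25 ± 0.13, adjusted p = 3.76e-05), Tlr13 (-1.14), Tlr4 (-1.11), Tlr8 (-0.90) and Tlr6 (-0.31). Tlr2 (-0.35, adjusted p = 0.0834), Tlr9 (-0.19), Tlr1 (-0.11), Tlr3 (-0.10) and Tlr12 (0.06) did not pass. Selenop, which encodes the secreted selenium carrier, fell by 1.81 ± 0.14, the growth factor gene Igf1 by 1.68 ± 0.11 and the amino acid transporter gene Slc7a8 by 1.63 ± 0.13. The NADPH oxidase genes Cybb and Cyba fell by 1.26 and 1.04, the signalling adaptor gene Tyrobp by 1.36 and the nuclear receptor gene Pparg by 1.27. Ptprc, the leukocyte common antigen CD45, fell by 1.19 and the integrin gene Itgb2 by 1.20. In Selenop, Igf1, Slc7a8, Cybb, Cyba, Tyrobp, Pparg, Ptprc and Itgb2 the transgenic arrays lay below the others in each Ifng genotype.

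Nop58, a core protein of the particles that methylate ribosomal RNA, is 1 of the rises outside the lists, at 0.43 ± 0.08 (adjusted p = 0.00664), with effects of 0.53 with Ifng and 0.34 without it and no overlap in either genotype. Brix1 (0.44), Utp18 (0.44), Wdr75 (0.40), Nhp2 (0.37) and Ncl (0.30) rose too, and in each of them the arrays overlapped in at least 1 Ifng genotype. Ro60, an RNA-binding protein, rose by 0.68 ± 0.15 (adjusted p = 0.0232).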
